A study of Mus musculus with 8 samples.

Results

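The genes described here move calcium and magnesium through the distal nephron, the part of the kidney tubule that sets how much of both ions is lost in urine. The set holds 10 genes of the 30153 rows in the table, taken by symbol and not by any measured value. They are Trpv5, Trpm6, Trpm7, Calb1, S100g, Slc8a1, Atp2b1, Atp2b4, Casr and Cnnm2, and each matched a single row. RNA came from kidneys of 8 mice of strain C57/BL6, 4 aged and 4 adult. The groups are labelled Haplotype-II aged+western diet and Haplotype-II adult+western diet, and the title describes hypertensive mice that overexpress a human angiotensin receptor. Haplotype and diet were thus shared by all 8 animals. The labels used here give no age in weeks, no sex and no promoter for the human gene, whose RNA was not analysed here. In GENCODE M21 on GRCm38 all 10 are protein-coding genes, on chromosomes 6 (Trpv5), 19 (Trpm6 and Cnnm2), 2 (Trpm7), 4 (Calb1), X (S100g), 17 (Slc8a1), 10 (Atp2b1), 1 (Atp2b4) and 16 (Casr).

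In the distal convoluted and connecting tubule, calcium enters the cell through an apical channel, binds a cytosolic carrier protein, and leaves on the blood side through a sodium-calcium exchanger or a calcium pump. Magnesium enters the distal convoluted tubule cell through an apical channel of the melastatin family. In the thick ascending limb, which lies upstream, both ions pass between cells, and a receptor on the blood side senses calcium and reduces that flow. Vitamin D and parathyroid hormone are known to raise the transcellular route.

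Values are TPM, a relative abundance per transcript length, so levels of different genes can be set side by side but read depth is unknown and no counting interval can be given. In bulk tissue, fewer tubule cells and less RNA per cell cannot be told apart. The 4 Y-linked genes Ddx3y, Kdm5d, Eif2s3y and Uty summed to between 34.7 and 50.6 TPM in replicates 3 and 4 of each age group and to at most 2.30 TPM in replicates 1 and 2. No label records it, and it fell evenly over the age groups. Mitochondrially encoded genes took 26.8% to 46.9% of the nominal TPM total in aged kidneys and 19.6% to 26.1% in adult kidneys. A larger share for them lowers the TPM of the other genes. Relative to other libraries, the median log2 level of genes with long transcripts minus that of genes with short ones ran from 0.00442 to 0.15 in aged kidneys and from −0.19 to 0.04 in adult kidneys. Tissue markers of the distal nephron were present in all libraries. Slc12a3, the thiazide-sensitive cotransporter that defines the distal convoluted tubule, had 30.0 to 244 TPM in aged and 41.1 to 189 TPM in adult kidneys. The 5 adrenal cortex genes summed to 0.38 to 1.90 TPM in aged and 0.30 to 1.04 TPM in adult kidneys, and 2 of them, Cyp11b1 and Cyp11b2, were listed at 0 throughout. Of the others, Star was above 0 in all 8 libraries and Cyp11a1 had 0.57 and 1.23 TPM in aged replicates 1 and 2, against at most 0.0368 TPM in adult kidneys.

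Promoter windows from RefSeq on GRCm38.p6, a patch release of the build in the submitters' processing notes, were found for 9 of the 10 genes. Each window runs from 250 bases before the annotated gene start to 50 bases after it. The windows of S100g and Trpv5 are shown because they were the windows with a match to TATAAA, and that of Atp2b1 because it stands at the other end in base composition. S100g, the intracellular carrier calbindin-D9k, lies on chromosome X (chrX:162964550-162964849, minus strand). Trpv5, the apical calcium channel, lies on chromosome 6 (chr6:41680674-41680973, minus strand). Atp2b1, a calcium pump present in most cells, lies on chromosome 10, and the first of its pair of windows is given (chr10:98914392-98914691, plus strand). Capitals mark matches on either strand to TATAAA (the TATA box), GGGCGG (the GC box) or AGGTCA (the nuclear receptor half-site).
S100g: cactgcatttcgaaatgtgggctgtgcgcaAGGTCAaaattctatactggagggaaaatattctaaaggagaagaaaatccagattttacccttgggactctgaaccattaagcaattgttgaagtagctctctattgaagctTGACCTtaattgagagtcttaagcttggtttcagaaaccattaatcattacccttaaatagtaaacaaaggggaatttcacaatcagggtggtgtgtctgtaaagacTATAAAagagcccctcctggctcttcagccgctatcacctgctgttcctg
Trpv5: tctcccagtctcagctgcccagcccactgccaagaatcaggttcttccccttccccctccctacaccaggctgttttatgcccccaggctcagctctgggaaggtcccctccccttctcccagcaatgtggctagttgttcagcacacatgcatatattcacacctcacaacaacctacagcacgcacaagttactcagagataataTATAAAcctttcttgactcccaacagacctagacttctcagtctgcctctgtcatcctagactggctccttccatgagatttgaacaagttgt
Atp2b1: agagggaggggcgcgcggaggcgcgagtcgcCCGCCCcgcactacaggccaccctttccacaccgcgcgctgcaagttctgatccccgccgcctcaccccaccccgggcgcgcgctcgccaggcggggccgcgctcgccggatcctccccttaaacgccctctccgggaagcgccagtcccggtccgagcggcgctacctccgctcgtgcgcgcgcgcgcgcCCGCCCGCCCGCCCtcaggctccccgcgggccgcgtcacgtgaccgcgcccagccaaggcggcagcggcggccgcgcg

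TATAAA began at the annotated start base in S100g and at position −43 from it in Trpv5, and it was found in 13.6% of all 32851 windows. S100g also held AGGTCA 2 times, from position −220 on the printed strand and from −107 on the other. AGGTCA was found in 16.3% of all windows. No window of the set held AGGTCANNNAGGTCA, the direct repeat that the vitamin D receptor prefers. Those letters occurred in 0.00609% of all windows. The first Atp2b1 window held GGGCGG 4 times, all on the other strand, against 35.7% of all windows with any match. It was 79.3% G and C, with a CpG content of 1.18 times that expected from its bases. The S100g window was 41.0% G and C with 0.24 times the expected CpG, and the Trpv5 window 50.7% with 0.0608 times. Trpm7, which is also expressed in most tissues, had 1.16 times the expected CpG.

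The 10 genes spanned from 1055 to 0.27 TPM in their means. S100g led with a mean of 1055 TPM over the 8 libraries, and was above Calb1 in 8 of 8. Calb1, the larger carrier calbindin-D28k, averaged 49.7 TPM and exceeded Trpm7 in 6 of 8 libraries. Trpm7, a channel fused to a kinase that carries magnesium in most cell types, averaged 27.4 TPM, and was above Atp2b4 in 7 of 8. The calcium pumps Atp2b4 and Atp2b1 averaged 11.9 and 5.60 TPM, but each was the higher of the pair in 4 libraries. Below them came Cnnm2 at 4.06, Casr at 3.33, Trpv5 at 2.29 and Trpm6 at 2.20 TPM. Trpv5 exceeded Trpm6 in 4 of 8 libraries, and neither can be placed above the other. The order from Cnnm2 to Casr held in 6 libraries and that from Casr to Trpv5 in 7. The distal entry channels Trpv5 and Trpm6 were thus listed at far lower TPM than the carriers S100g and Calb1, while Trpm7 was nearer to Calb1.

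**Figure D1:**
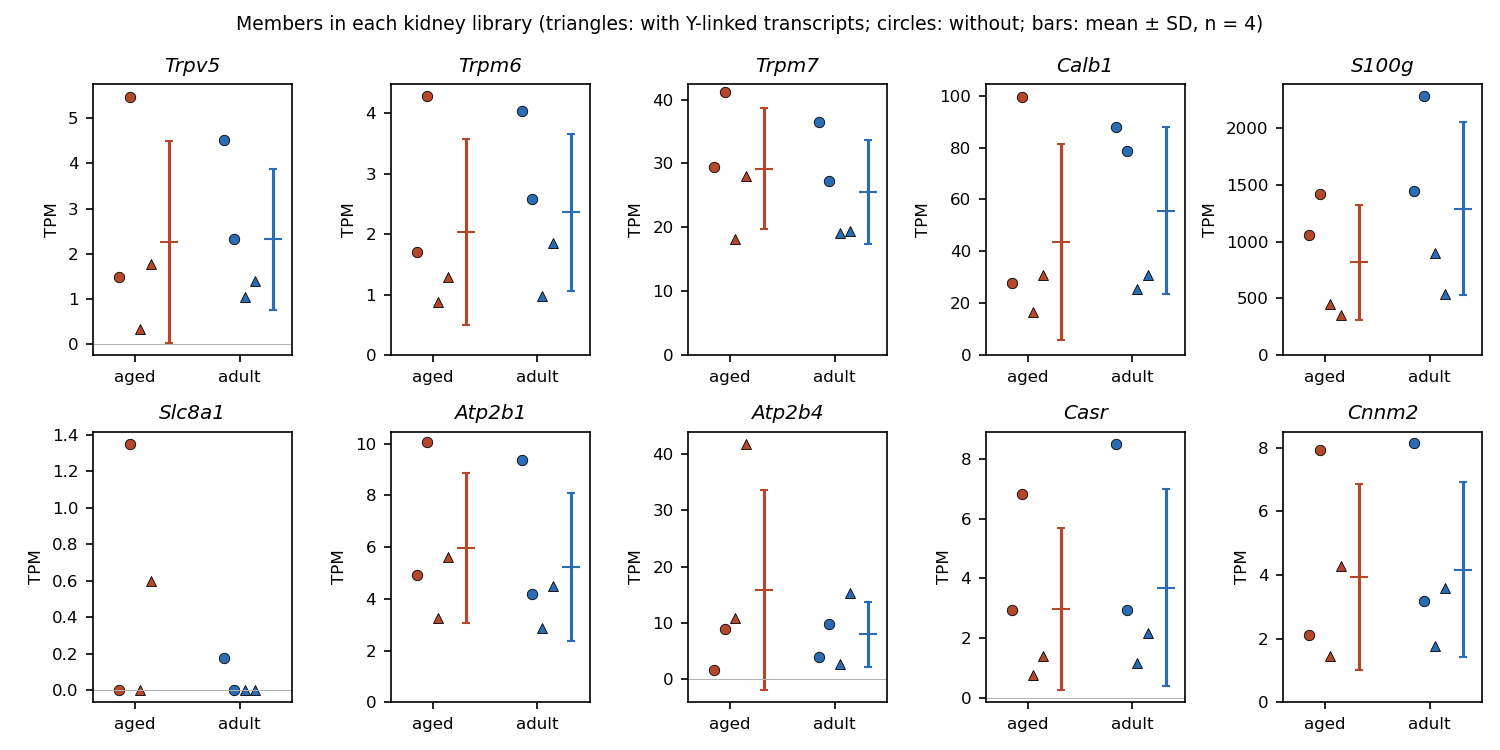
TPM of the 10 genes in each kidney library, with aged libraries left and adult libraries right in every panel. Triangles are libraries with Y-linked transcripts and circles those without, and bars give the mean ± SD (n = 4), which is not drawn for Slc8a1. The age groups overlap in every panel, while for S100g and Casr all triangles lie below all circles.

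None of the 9 genes that could be tested passed the test between aged and adult kidneys. A gene was tested when its mean was at least 1 TPM, which left out Slc8a1 alone, and 11796 genes of the table met it. By limma on log2(TPM + 1), 0 of the 9 had an adjusted p under 0.05, and the same held for 0% of all tested genes. At an unadjusted p under 0.05 the count was also 0 of 9, against 3.39% of all tested genes. The ranges of the age groups overlapped for all 10 genes, whereas 2.46% of all tested genes did not overlap. With 4 animals a group the intervals are wide, and they leave room for differences of 2-fold in most of the genes. Of the 9, 6 had a negative log2 fold change and the median was −0.15, beside −0.11 and 65.0% negative over all tested genes.

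Trpv5, the calcium entry channel, averaged 2.26 ± 2.23 TPM in aged and 2.32 ± 1.56 TPM in adult kidneys (SD, n = 4 each). Trpv5 had 1.48, 5.47, 0.33 and 1.76 TPM in aged kidneys, against 4.52, 2.33, 1.04 and 1.40 TPM in adult kidneys. A single animal in each group, aged replicate 2 and adult replicate 1, stood well above the rest, and the lowest value of all was aged replicate 3. The log2 fold change was −0.15 (SE 0.47, 95% interval −1.18 to 0.88, limma adjusted p = 1.00). Its transcripts shared 1.51% of their 31-base words with Trpv6, the near relative that carries calcium in the gut. Trpv6 itself, given for that reason, had at most 0.94 TPM in aged and 1.11 TPM in adult kidneys.

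Magnesium entry genes followed the same animals. Trpm6, the channel whose loss causes low blood magnesium in humans, had 1.70, 4.29, 0.88 and 1.29 TPM in aged kidneys and 4.04, 2.58, 0.98 and 1.85 TPM in adult kidneys. Aged replicate 2 and adult replicate 1 were again highest, and replicate 3 was lowest in each group. For age its log2 fold change was −0.18 (SE 0.39, 95% interval −1.03 to 0.67). Trpm7 had 29.4, 41.2, 18.1 and 28.1 TPM in aged kidneys, against 36.4, 27.2, 19.2 and 19.5 TPM in adult kidneys, so it varied less, within a range of 18.1 to 41.2 TPM. Its log2 fold change was 0.18 (SE 0.31, 95% interval −0.50 to 0.85).

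The carriers had the lower means in aged kidneys, within a wide spread. S100g had 1060.5, 1416, 447 and 350.4 TPM in aged kidneys and 1443, 2286, 902 and 536 TPM in adult kidneys. Adult animals held the top 2 values and aged animals the bottom 2, with the others interleaved. The means were 819 ± 508 TPM in aged and 1292 ± 760.0 TPM in adult kidneys (SD, n = 4 each). The log2 fold change of −0.69 (SE 0.51, 95% interval −1.81 to 0.43, limma adjusted p = 1.00) was the most negative of the 9. Calb1 had 27.8, 99.6, 16.7 and 30.8 TPM in aged kidneys, against 87.8, 78.5, 25.4 and 30.9 TPM in adult kidneys. Aged replicate 2 was the highest of all 8, and the other aged values lay near the lower pair of adult ones. The log2 fold change was −0.47 (SE 0.54, 95% interval −1.65 to 0.72).

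Extrusion genes differed in how they varied. Atp2b1, the pump isoform 1, had 4.90, 10.1, 3.27 and 5.62 TPM in aged kidneys and 9.38, 4.18, 2.88 and 4.51 TPM in adult kidneys, with the same highest and lowest animals as Trpm6. The age difference in log2 was 0.17 (SE 0.38, 95% interval −0.65 to 0.99). Atp2b4, the pump isoform 4, had 1.60, 8.94, 10.9 and 41.8 TPM in aged kidneys, against 3.92, 9.78, 2.71 and 15.3 TPM in adult kidneys. Replicate 4 was highest in each group, unlike any other of the 9 genes, and the values ran over a wider range than for any of them. For age the log2 fold change was 0.51 (SE 0.73, 95% interval −1.09 to 2.11), and it was −0.16 without aged replicate 4. Several marker lists of other cells varied across the same libraries. The 9 lymphocyte genes summed to 171, 212, 355 and 575 TPM in aged kidneys, in the same order of libraries as Atp2b4, against 227, 52.1, 166 and 132 TPM in adult kidneys, in another order. Most of each sum was a single antibody gene, Igkc, with 141, 186, 300 and 515 TPM in aged kidneys. Of the other lymphocyte genes only Ms4a1, under 1 TPM in all libraries, rose in that aged order. The 7 endothelial genes summed to 118 to 167 TPM in aged and 73.7 to 157 TPM in adult kidneys, with the highest value of all 8 in aged replicate 4. The 5 red cell genes summed to 933 to 14661 TPM in aged and 2700.5 to 10649 TPM in adult kidneys, with 1116 TPM in aged replicate 4. For the 6 smooth muscle and pericyte genes the sums were 17.0 to 38.2 TPM in aged and 20.8 to 29.7 TPM in adult kidneys, with 17.1 TPM in aged replicate 4. The part of any of these cells in the Atp2b4 values was not tested.

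Slc8a1, the sodium-calcium exchanger, was listed at 0 in 5 of the 8 libraries. It had 0, 1.35, 0 and 0.60 TPM in aged kidneys, against 0.17, 0, 0 and 0 TPM in adult kidneys. It is known as the main exit for calcium in the connecting tubule, but an exact 0 in this table need not mean absence. Ndufa4, a respiratory chain gene that every cell uses, was also listed at 0 in 2 libraries. No fold change is given for Slc8a1. Its relatives were looked up after these values were seen. The exchanger Slc8b1, of mitochondria, had 2.81 to 4.21 TPM in aged and 1.35 to 7.85 TPM in adult kidneys, and the isoforms Slc8a2 and Slc8a3 stayed under 1 TPM in all libraries.

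The sensor and the magnesium regulator varied with the entry channels. Casr, the calcium-sensing receptor, had 2.93, 6.83, 0.77 and 1.38 TPM in aged kidneys and 8.50, 2.94, 1.16 and 2.15 TPM in adult kidneys. Its log2 fold change was −0.25 (SE 0.53, 95% interval −1.40 to 0.91). Cnnm2, a basolateral membrane protein whose human mutations cause magnesium wasting, had 2.11, 7.93, 1.45 and 4.29 TPM in aged kidneys, against 8.15, 3.18, 1.78 and 3.58 TPM in adult kidneys. The age difference in log2 was −0.11 (SE 0.46, 95% interval −1.11 to 0.90). In each gene aged replicate 2 and adult replicate 1 were highest of their groups and replicate 3 the lowest.

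**Figure D2:**
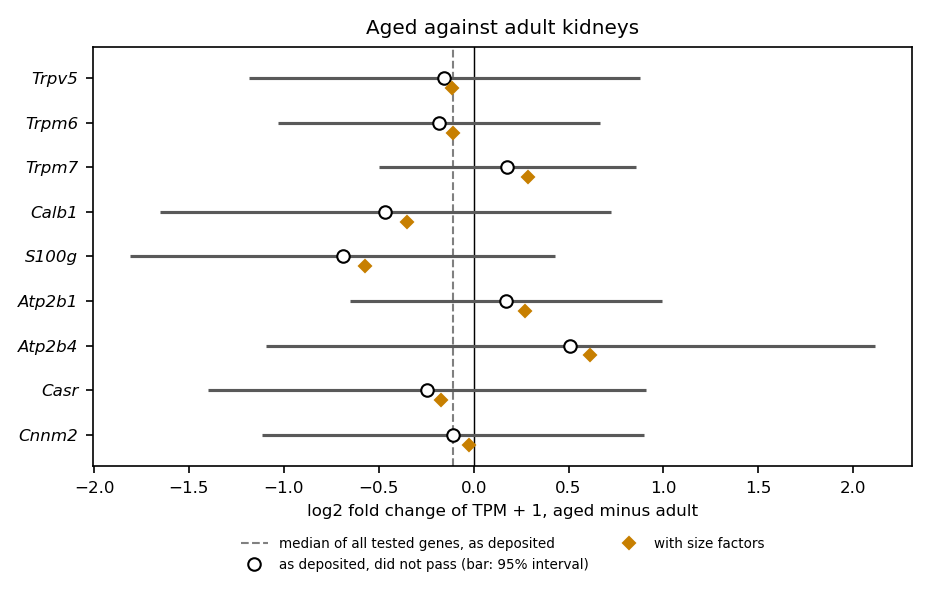
Log2 fold changes of the 9 tested genes, aged minus adult, on the log2(TPM + 1) scale, with 95% intervals as bars. Every bar crosses 0, from S100g at −0.69 to Atp2b4 at 0.51, and the diamonds, with size factors, lie slightly to the right of the deposited values.

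Across the 9 genes, aged replicate 2 was the highest aged library for 8 and adult replicate 1 the highest adult library for 7. At the other end, aged replicate 3 was the lowest aged library for 7 and adult replicate 3 the lowest adult library for 8. Summed markers of most tubule segments and of podocytes moved with this order, and those of macrophages in part. The sums of endothelial, smooth muscle and pericyte, lymphocyte, red cell, adipocyte, urothelial and adrenal genes did not follow it in full. Red cell genes, at 933 TPM in aged replicate 2, were lowest of all there. The thick ascending limb sum was lowest of the adults in adult replicate 4. The summed TPM of 7 proximal tubule genes was 5931 in aged replicate 2 and 7049 in adult replicate 1, each the highest of its group, and 1777 in aged replicate 3 and 2454 in adult replicate 3, each the lowest. For the 7 distal convoluted tubule markers the sums in the same 4 libraries were 464, 422, 91.5 and 140.1 TPM. The 5 podocyte genes summed to 156, 125, 42.2 and 42.0 TPM in these 4 libraries, again the extremes of each group. The 5 macrophage genes summed to 81.6, 103, 20.7 and 34.9 TPM, lowest in replicate 3 of each group and highest of the adults in adult replicate 1, while aged replicate 1 had 82.4 TPM. The part of cell content in the members' spread was not tested. With aged replicate 2 and adult replicate 1 both left out, the median log2 fold change of the 9 genes was −0.23, beside −0.09 over all genes, and 0 members were called.

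Ratios within a library do not depend on the share that other RNA takes, and 8 of them were compared between the ages by exact two-sided permutation, for which the smallest possible p is 0.0286. None passed, with adjusted p = 0.914 for all. After adjustment over the 8 ratios, a single ratio at that smallest p could not have passed. The test therefore cannot decide whether any 1 ratio differed. The most stable was Trpm6 to Slc12a3, which was 0.0254, 0.0176, 0.0292 and 0.0194 in aged kidneys and 0.0214, 0.0277, 0.0237 and 0.0230 in adult kidneys. The ratio thus stayed within a narrow band while each gene alone varied several-fold. Other genes, among them Hsdl2 and Farp2 described below, also followed Trpm6 closely, and the part of cell type was not tested. For Trpm6 to Slc12a3 the age difference in log2 ratio was −0.09 (SE 0.19, exact permutation p = 0.657). Trpv5 to Calb1 was 0.0531, 0.0549, 0.0197 and 0.0572 in aged kidneys, against 0.0514, 0.0297, 0.0411 and 0.0454 in adult kidneys, with aged replicate 3 alone far below the rest of its group. Trpm6 to Trpm7 had the largest mean difference, −0.48 in log2 (SE 0.37, exact permutation p = 0.286). Atp2b1 to Atp2b4 ran from 0.13 in aged replicate 4 to 3.06 in aged replicate 1, the widest range of the 8 ratios.

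**Figure D3:**
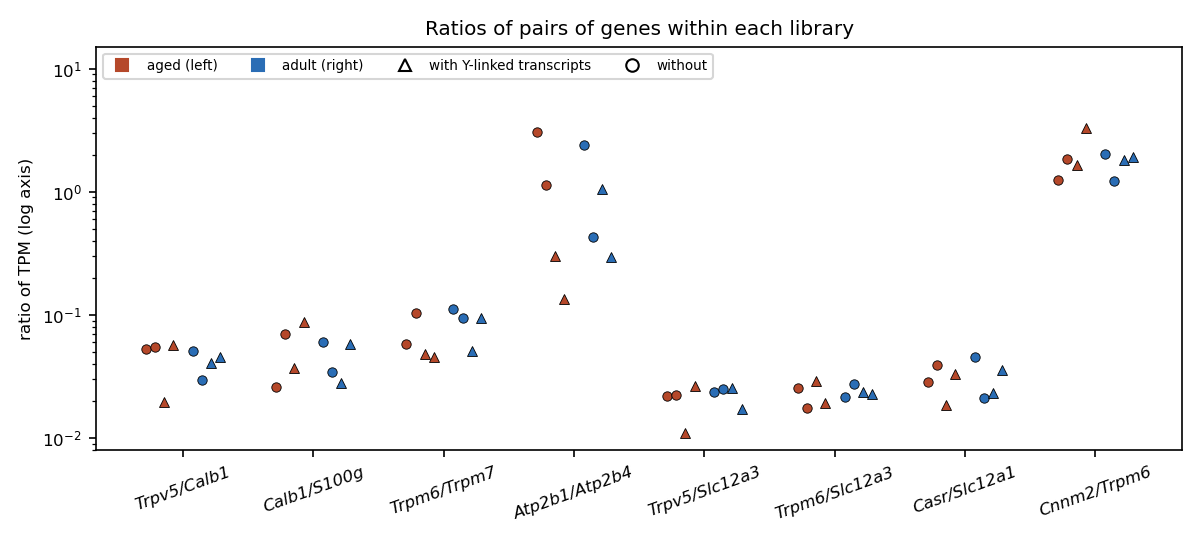
Ratios of TPM between pairs of genes in each library on a log axis, with aged libraries left and adult libraries right of each tick. Trpm6/Slc12a3 lies between 0.0176 and 0.0292 in all 8 libraries, while Atp2b1/Atp2b4 spreads from 0.13 to 3.06.

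The Y-linked split was fitted together with age, and 3 of the 9 genes passed the test for it. S100g, Calb1 and Casr were lower in the 4 libraries with Y-linked transcripts by limma adjusted p. S100g averaged 559 ± 241 TPM in libraries with Y-linked transcripts and 1551 ± 519.7 TPM in those without (SD, n = 4 each), and the ranges did not overlap. Its log2 fold change was −1.51 (SE 0.23, adjusted p = 0.00552). Casr averaged 1.37 ± 0.58 TPM with and 5.30 ± 2.82 TPM without (SD, n = 4 each), again without overlap, at a log2 fold change of −1.33 (SE 0.33, adjusted p = 0.0351). Calb1 averaged 26.0 ± 6.67 TPM with and 73.4 ± 31.6 TPM without, where the ranges overlapped, at −1.36 (SE 0.36, adjusted p = 0.0416).

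These calls have to be read against a table that shifted as a whole. Of all tested genes 12.4% were called for the split and 11.3% were called and lower with Y-linked transcripts, while 89.2% had a negative fold change with a median of −0.46. Of the 9 members 3 were called, all lower, and 8 were negative with a median of −0.85. Not overlapping and lower were 2 of the 9, against 21.3% of all tested genes. With size factors, which bring the median of all genes to 0.00175, 8 members were still negative but 0 were called, and S100g had −0.95 (limma adjusted p = 0.174). With each library's trend on transcript length removed S100g missed the threshold too (−1.14, adjusted p = 0.0544). With quantile normalization, S100g alone was called among the members (−1.27, adjusted p = 0.0128), and likewise with mitochondrial genes removed (−1.31, 0.0137). The call of S100g held without any single library, with adjusted p between 0.00464 and 0.0225. That of Calb1 was lost without aged replicate 2 or 3 or any of the adult replicates, with limma adjusted p between 0.0716 and 0.131. That of Casr was lost without aged replicate 2 or 3 or adult replicate 1, 3 or 4, with adjusted p between 0.0519 and 0.116.

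Trpv5, Trpm6 and Trpm7 had −1.01, −0.85 and −0.64 for the split and did not pass (limma adjusted p = 0.0792, 0.0624 and 0.0694). Cnnm2 and Atp2b1 had −0.67 and −0.63 (adjusted p = 0.230 and 0.148). Atp2b4 had a positive value, 1.12 (SE 0.69, adjusted p = 0.229), with 2.71 to 41.8 TPM in libraries with Y-linked transcripts and 1.60 to 9.78 TPM in those without. Some other genes of these cells also passed. Among them were Slc12a1, the salt transporter of the thick ascending limb, at −1.60 (limma adjusted p = 0.00236), and Klk1, a protease of the connecting tubule, at −2.18 (0.00431). Slc12a3 of the distal convoluted tubule had −1.34 and did not pass (limma adjusted p = 0.0694). Its ranges overlapped, at 30.0 to 80.6 TPM with and 67.0 to 244 TPM without. Kap, an androgen-regulated kidney gene, averaged 62381 TPM with and 15198 TPM without Y-linked transcripts. The summed distal convoluted tubule markers were 91.5, 176, 140.1 and 198 TPM in libraries with Y-linked transcripts. In those without, they were 209, 464, 422 and 282 TPM, so the sums did not overlap. Of the single genes in that sum, Slc12a3, Wnk4, Emx1 and Klhl3 overlapped, and Pvalb, Sall3 and Stk39 did not. The 7 thick ascending limb markers summed to 503 to 815 TPM with and 1260 to 2311 TPM without. Cldn10 in that list did not differ in this way, with 257 to 441 TPM with and 238 to 374 TPM without. Mitochondrial genes took 46.9%, 37.1%, 24.5% and 26.1% with, against 32.9%, 26.8%, 20.9% and 19.6% without, higher with Y-linked transcripts at each age. The part of these differences in the members' values was not tested.

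**Figure D4:**
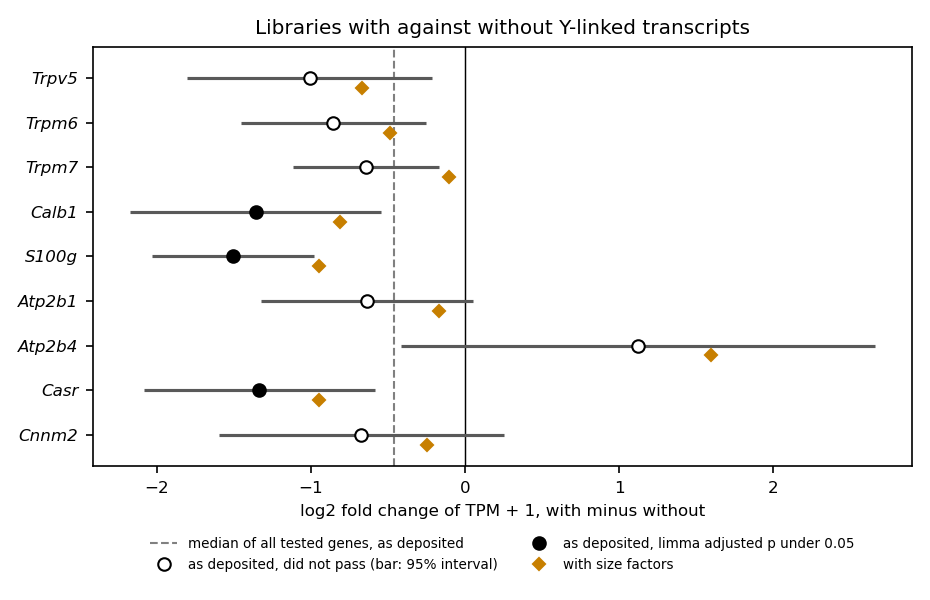
Log2 fold changes of the 9 tested genes, libraries with minus libraries without Y-linked transcripts, fitted with age, with 95% intervals as bars. Filled circles mark S100g, Calb1 and Casr, which passed as deposited, the dashed line at −0.46 is the median of all genes, and the diamonds, with size factors, lie to the right of the deposited values.

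The age difference of the members did not pass a test of change between libraries with and without Y-linked transcripts. The interaction had a limma adjusted p of 1.00 for all 9, while 0.0339% of all tested genes were called for it. S100g had a negative age difference on each side, with a log2 fold change of −0.81 (SE 0.34) among libraries with and −0.57 (SE 0.36) among libraries without Y-linked transcripts, where neither passed (adjusted p = 0.653 and 0.999). Atp2b4 had 1.54 (SE 0.58) with and −0.52 (SE 0.64) without, and its interaction of 2.05 had a 95% interval of −0.79 to 4.89. The remaining 7 lay between −0.35 and 0.21 with and between −0.64 and 0.14 without. Fitting the split together with age cannot change an age difference in this balanced design, and it called 0 members.

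Other genes of calcium handling were not called for age either. Of 22 listed, 13 were tested, of which 0 passed, 9 were negative and the median was −0.08. Cyp24a1, which degrades active vitamin D, had the smallest p. It had 19.3, 14.8, 5.91 and 3.09 TPM in aged kidneys, against 60.3, 23.1, 16.3 and 17.1 TPM in adult kidneys. Only aged replicate 1 reached into the adult range, and adult replicate 1 lay far above the rest. Its log2 fold change was −1.42 (SE 0.54, unadjusted p = 0.0225, limma adjusted p = 1.00). Cyp27b1, which makes active vitamin D, had 0.66 (SE 0.41), the kinase Sgk1 0.70 (SE 0.44) and Cldn12, a claudin that lets calcium pass between cells, −0.39 (SE 0.29), none of which passed. The parathyroid hormone receptor Pth1r, singled out after its values were seen, was listed at 0 in all aged libraries and in 2 adult ones. It had only 0.37 and 0.45 TPM in adult replicates 1 and 2, and was too low to be tested. As for Slc8a1, an exact 0 need not mean absence.

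Of 25 other magnesium genes, 22 were tested for age, 0 passed, 15 were negative and the median was −0.11. Among those with the smallest p was Cldn10 at −0.36 (SE 0.23), a claudin also in the list of thick ascending limb markers. Another was Pcbd1 at −0.32 (SE 0.21), an enzyme that also acts as a transcriptional cofactor. Mrs2, a mitochondrial magnesium channel, had 0.31 (SE 0.27), and none passed. Cldn10, Pcbd1 and Mrs2 kept their signs under every alternative, but the counts of negative genes in both lists changed with the scaling. With size factors 5 of the 13 calcium genes and 10 of the 22 magnesium genes were negative, with medians of 0.04 and 0.000881, and after removal of mitochondrial genes 4 and 8 were negative, beside 30.2% of all genes. Among the members 6 of 9 were negative with size factors or quantile normalization, and 5 after removal of mitochondrial genes.

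For the Y-linked split, 4 of the 13 calcium genes were called, all lower with Y-linked transcripts, namely Pvalb, Cyp24a1, Gnaq and Klk1, beside 12.4% of all tested genes called and 11.3% called and lower. Of the 22 magnesium genes 7 were, all lower, namely Cnnm4, Slc41a3, Egf, Fxyd2, Kcnj10, Cldn16 and Cldn19. They are named because they passed. With size factors the counts were 1 of 13 and 4 of 22, beside 5.44% of all tested genes. Klk1, Fxyd2, Cldn16 and Cldn19 were then called lower and Mrs2 higher. Fxyd2 is a subunit that tunes the sodium pump in the distal convoluted tubule, and Cldn16 and Cldn19 form the paracellular magnesium path of the thick ascending limb.

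Among themselves, the members ran from close profiles to a single distant one, by a measure that also grows with a gene's own spread. Likeness was taken as the root mean square difference of log2(TPM + 1) over the 8 libraries after each gene was centred on its own mean, a measure in which low genes are compressed. Trpm7 and Atp2b1 were the closest pair, at 0.22. They also had the smallest own spreads, the root mean square of a gene's centred values, at 0.40 and 0.51. Trpv5 was nearest to Cnnm2, and Trpm6, Calb1 and Casr were nearest to Trpv5, at 0.25 to 0.32. S100g was nearest to Calb1 at 0.60, beside an own spread of 0.88 in each. Atp2b4 was the farthest member from each of the other 8, and its nearest was Cnnm2 at 1.26. Its own spread, 1.21, was the largest and nearly as large as that distance.

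Over all 11796 tested genes, those most like Trpv5 were Folh1 (0.0962), Uroc1 (0.15) and F13b (0.15). Folh1 had 18.8 to 106 TPM in aged and 26.5 to 80.7 TPM in adult kidneys, highest in the same 2 animals as Trpv5. Among those most like Trpm6 were Hsdl2 (0.0857) and Farp2 (0.10). Calb1 was most like Sfrp1 (0.18), Atp4a (0.21) and Acy1 (0.21). S100g was most like Wfdc15b (0.24), Slc16a7 (0.27) and Ppp1r1a (0.27). Wfdc15b had 919.6, 714, 309 and 239 TPM in aged kidneys, against 798, 1284, 535 and 385 TPM in adult kidneys. These are descriptions over 8 libraries that share the Y-linked split and the order of libraries given above.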

How the data were processed

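Per the labels' protocols, Qiagen columns yielded the kidney RNA, and its polyadenylated fraction went into strand-specific Illumina libraries. The deposited values are TPM, and kallisto, DESeq2 and GRCm38 appear, without roles, in the submitters' processing notes, so which of them made the TPM, and on which annotation, is not stated. Column sums were 924798 to 950974 TPM, and columns were matched to samples by title. Of 30153 identifiers 29732 (98.6%) matched a symbol, and 7 were summed with another of the same symbol.

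Aged and adult libraries, 4 separate animals each per the series' design, were compared with limma 3.58.1 in R 4.3.3 (intensity trend) on log2(TPM + 1) for the 11796 genes with a mean of at least 1 TPM. P-values were Benjamini-Hochberg adjusted over all of them at 0.05. Fold changes on this scale understate those of low genes. Libraries were also split at 10 TPM of summed Y-linked genes, fitted with age. Size factors were medians of ratios to the geometric mean. Transcript lengths (median per gene, for 99.5% of tested genes) and shared 31-base words came from GENCODE M21, and promoter windows from RefSeq.

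Checked on simulated data over 11796 genes, the age comparison recovered 15.3% of genes changed 2-fold and 73.6% of those changed 4-fold on the log2(TPM + 1) scale, with 4.90 false calls a run. For the split these were 39.1%, 87.1% and 7.35. Changes were planted only in genes at about 5 TPM or more, which leaves out Trpv5, Trpm6, Casr and Cnnm2. Noise was drawn for each gene independently, whereas many genes of these libraries shifted together, so the rates need not hold for the real data. Members, lists and ratios were chosen with earlier results of these data known. All members were named, and of each other list those that passed or up to 4 with the smallest p, and the 3 genes most like Trpv5, Trpm6, Calb1 and S100g. Some genes that this rule names are not reported here. Alternatives were pseudocounts of 0.1 and 5, no filter or a minimum of 5 TPM, quantile normalization, size factors, leaving out mitochondrial genes, the split, the replicate block and each library left out. Correction for transcript length in each library, joint removal of aged replicate 2 and adult replicate 1, and the alternatives of the members' count for the split were added after the data were seen. The ratio of Slc8a1 to Atp2b1 was not computed because of zeros.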

Additional observations from a re-analysis of the deposited data

Results flagged for a closer look

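In groups of 4 libraries, a sample was marked as far from the others by Dixon's gap criterion at 95%. Among the 50 groups checked there were 5 such samples, and chance marks about 1 in 20. Calb1 had 99.6 TPM in aged replicate 2, far above the other aged kidneys. Slc8a1 had 0.175 TPM in adult replicate 1, where the other adult libraries were at 0. Any value above 0 would have been marked there, and the rate of about 1 in 20 does not allow for such ties. Cyp24a1 had 60.3 TPM in adult replicate 1. The log2 ratio of Trpv5 to Calb1 was −5.66 in aged replicate 3, below the rest of its group, and that of Trpv5 to Slc12a3 was −5.84 in adult replicate 4, below the other adult libraries.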

How the results depend on the processing

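No alternative called a member for age, and the members' median log2 fold change moved by less than the spread between replicates under all of them. It lay between −0.49 (without aged replicate 2) and 0.17 (without adult replicate 1 and, nearly as high, without aged replicate 3) when a library was left out. The replicate block cannot change it in this balanced design. Whether replicate numbers pair the samples was not settled by the check on deviations. Correlations were 0.04, 0.18, 0.49 and 0.42 for numbers 1 to 4, and ran from −0.53 to 0.57 between unlike numbers. Because replicates 3 and 4 of both groups share the Y-linked transcripts, the check cannot tell pairing from the split. The replicate block called 0 genes. For age, 60 genes were called among libraries with Y-linked transcripts and 3 among libraries lacking them, and 0 to 2 when a library was left out. For the split, 1464 genes (133 higher, 1331 lower) became 762 with no filter, 642 with size factors (335 higher, 307 lower), 636 with quantile normalization, 687 with mitochondrial genes removed, 645 with the length trend removed, 331 without aged replicate 2 and adult replicate 1, and 400 to 2048 without a single library. Members called were 3, against 1, 0, 1, 1, 0 and 1 in the same order and 1 to 5 without a single library. The interaction count of 4 was 0 with no filter and 2 with size factors. The causes of these changes were not tested.

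Of 113 age differences of members under settings that leave out no single library, 110 kept their direction. The others were Atp2b4 (−0.52 in libraries without Y-linked transcripts) and Cnnm2 (0.11 with mitochondrial genes removed, 0.0125 in libraries with Y-linked transcripts). In this balanced design the split as a covariate, the replicate block and the filters cannot change a fold change. Part of that count was therefore fixed in advance. With a library left out, the range was −0.56 to 0.20 for Trpv5, −0.49 to 0.0407 for Trpm6, −0.00181 to 0.38 for Trpm7, −0.0812 to 0.45 for Atp2b1, −0.16 to 1.19 for Atp2b4, −0.65 to 0.17 for Casr and −0.45 to 0.21 for Cnnm2, so these directions rest on single animals, while those of S100g (−1.04 to −0.35) and Calb1 (−0.96 to −0.13) held. Ratio differences reached both signs for Trpv5/Calb1 (−0.10 to 0.42), Calb1/S100g (−0.0650 to 0.52), Atp2b1/Atp2b4 (−1.08 to 0.43), Trpv5/Slc12a3 (−0.37 to 0.0520), Trpm6/Slc12a3 (−0.22 to 0.0265), Casr/Slc12a1 (−0.22 to 0.15) and Cnnm2/Trpm6 (−0.14 to 0.33).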
